A study of Homo sapiens with 18 samples.

Results

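Reelin, encoded by *RELN*, is a large secreted glycoprotein best known from the embryonic cortex, where Cajal-Retzius cells release it and it guides the layering of neurons. It binds the lipoprotein receptors VLDLR and LRP8 (also called ApoER2). Their tails carry the adaptor DAB1, which Src family kinases phosphorylate once reelin clusters the receptors. Phosphorylated DAB1 then recruits the adaptors CRK and CRKL, which pass the signal to the exchange factor RAPGEF1 and the small GTPase RAP1. The receptors, CRK and CRKL also work outside this pathway, in lipoprotein uptake and in signalling from adhesion sites and the kinase ABL1.

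These 6 genes were taken by name from the 20329 genes counted in polyadenylated RNA of HAP1 cells, a near-haploid human line that descends from a chronic myeloid leukaemia and grows attached. *RELN* was chosen by its measured level, which fell in cells lacking WAPL, and the others because of their place downstream of it. WAPL releases cohesin from DNA, and SCC4 (encoded by *MAU2*) is part of the complex that loads cohesin onto DNA. There were 18 libraries in 6 groups of 3. Wild-type cells formed control A and control B, *ΔWAPL* cells came from clone 3.3 and clone 1.14, and *ΔSCC4* and *ΔWAPL/ΔSCC4* cells each came from 1 line, the latter made by removing SCC4 from *ΔWAPL* cells of clone 3.3. WAPL had been disrupted by inserting a blasticidin cassette and SCC4 by a puromycin cassette. The labels mark the control libraries A or B. The names of the deposited files give 1 run and lane mark to control A, clone 3.3, *ΔSCC4* and *ΔWAPL/ΔSCC4* (set A) and another to control B and clone 1.14 (set B), so each knockout was compared with the controls of its own set. Since a knockout genotype was read in 1 clone, or 2 for *ΔWAPL*, its effect cannot be told apart from that of the clone within a set. The labels do not say whether the 3 libraries of a group came from separate cultures, so p-values measure only the spread between these libraries.

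Between 10007646 and 20711127 reads per library fell on genes. *MAU2* lay at 0.509 to 1.05 CPM (counts scaled to a common library size) in *ΔSCC4* and *ΔWAPL/ΔSCC4* libraries and at 52.1 to 72.7 CPM elsewhere. *WAPL* lay at 38.0 to 50.2 CPM in libraries without WAPL and at 68.0 to 131 CPM in the others. Of 8 markers of blood lineages, 6 stayed under 1 CPM in every library, among them *PTPRC*, *CD34*, *GATA1* and *CD33*. Of 14 markers of Cajal-Retzius cells and other neurons, 8 to 10 stayed under 1 CPM in all 3 libraries of a group, including *CALB2* and *DCX*. *TP73* (14.3 to 28.7 CPM), *EBF3* (37.4 to 69.0 CPM), *MAP2* (2.26 to 32.4 CPM) and *SYP* (4.22 to 15.9 CPM) exceeded 1 CPM in every library. The summed level of the neuronal markers ranged from 87.3 to 109 CPM in control A, 96.8 to 107 CPM in clone 3.3, 106 to 130 CPM in *ΔSCC4*, 68.9 to 77.4 CPM in *ΔWAPL/ΔSCC4*, 91.0 to 105 CPM in control B and 126 to 132 CPM in clone 1.14. Their part in the results below was not tested.

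*RELN* (ENSG00000189056) spans 518.3 kb on the minus strand of chromosome 7 in GRCh37 (hg19), at 103111828 to 103630105. The level of its transcript is the value on which all else here turns, so the stretch just before its start is shown first. These are the 250 bases upstream of the RefSeq start. They match chromosome 7 of GRCh37 once, at chr7:103630106-103630355 on the minus strand, outside every gene of the files. Other chromosomes were not searched. Each CG dinucleotide, the site of DNA methylation, is in capitals.

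RELN upstream region: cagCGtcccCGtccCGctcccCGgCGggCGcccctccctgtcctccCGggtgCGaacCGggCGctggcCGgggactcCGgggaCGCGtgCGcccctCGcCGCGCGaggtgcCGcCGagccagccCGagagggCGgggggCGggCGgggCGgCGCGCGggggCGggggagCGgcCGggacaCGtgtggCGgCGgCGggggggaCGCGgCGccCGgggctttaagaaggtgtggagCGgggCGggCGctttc

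The stretch held 43 CG dinucleotides and was 83.2% G or C. Among 35116 such windows upstream of RefSeq starts (GRCh38.p14), the median was 11 CG dinucleotides, and 1.02% held at least as many as that of *RELN*. The letters GGGCGG, which themselves hold a CG, occurred 6 times on both strands, and 42.6% of all windows held them at least once. The letters CCCTC, after which the factor CTCF is named, occurred 3 times on both strands, and 66.6% of windows held them. The windows of the partners were also rich in CG, with 41 for *VLDLR*, 34 for *CRK*, 32 for *CRKL* and 31 for *LRP8*, while the 6 annotated starts of *DAB1* had between 12 and 41. No methylation, peak or binding data were analysed here, so these counts describe the letters only.

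Wild-type HAP1 cells made *RELN* transcript at moderate levels, and every knockout line had almost none. In control A the libraries held 23.6, 23.2 and 32.4 CPM, and in control B 27.6, 28.8 and 31.4 CPM. Clone 3.3 held 0.449, 0.566 and 0.465 CPM, which was 9, 8 and 7 reads. All 6 control libraries thus lay far above the clone, whose mean was 1.87% of that of control A. Clone 1.14 held 1.43, 1.90 and 2.11 CPM, from 27, 32 and 35 reads, and its mean was 6.20% of that of control B. *ΔSCC4* cells held 0.390, 0 and 1.11 CPM. The library without a read was the shallowest of the series, and 3 counts, the limit that a count of 0 allows, equal 0.305 CPM there. *ΔWAPL/ΔSCC4* cells held 0.341, 0.983 and 0.735 CPM, from 6, 16 and 13 reads. The means of *ΔSCC4* and *ΔWAPL/ΔSCC4* were 1.89% and 2.6% of control A. *RELN* did not overlap its controls in any of these 4 comparisons, as was so for 23.3% of genes in clone 3.3, 42.5% in clone 1.14, 26.7% in *ΔSCC4* and 22.6% in *ΔWAPL/ΔSCC4*.

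**Figure D1:**
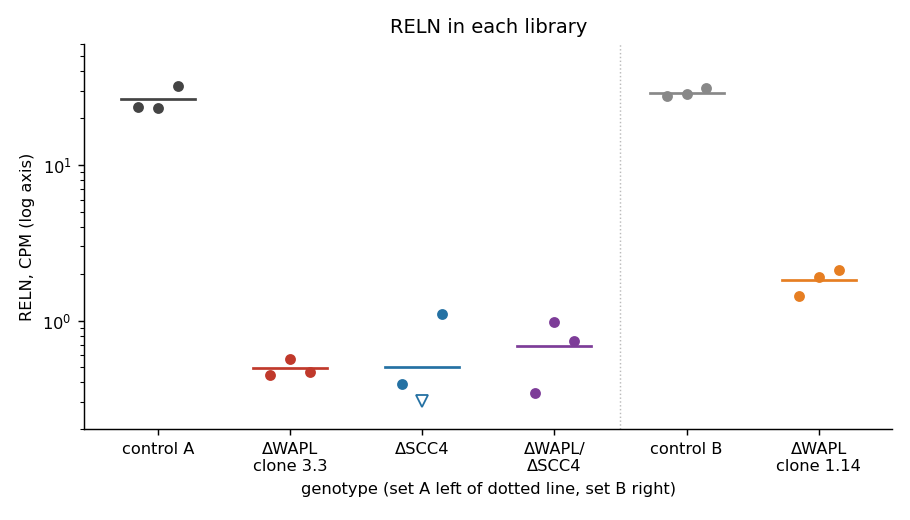
*RELN* in CPM on a log axis for each of the 18 libraries (points) in 6 genotypes, with group means as horizontal lines; set A lies left of the dotted line and set B right. The open triangle marks a *ΔSCC4* library with 0 reads, drawn at 0.305 CPM, the level of 3 reads there. The 6 control libraries sit between 23.2 and 32.4 CPM and the 12 knockout libraries at or below 2.11 CPM.

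In rising order of the mean, *RELN* stood at 0.493 ± 0.064 CPM in clone 3.3, 0.499 ± 0.561 in *ΔSCC4*, 0.687 ± 0.324 in *ΔWAPL/ΔSCC4*, 1.81 ± 0.35 in clone 1.14, 26.4 ± 5.2 in control A and 29.3 ± 1.9 in control B (SD, n = 3 each). The first 3 groups overlapped and did not differ beyond their spread, and nor did the 2 control groups. All 3 libraries of clone 1.14 lay above all 9 libraries of the other knockout groups, which belong to the other set. On the log2 scale the fitted difference was -5.75 (standard error 0.25) for clone 3.3 against control A, -4.02 (standard error 0.13) for clone 1.14 against control B, -5.58 (standard error 0.45) for *ΔSCC4* and -5.27 (standard error 0.28) for *ΔWAPL/ΔSCC4*, both against control A. These 4 values are descriptions, because the gene was chosen for its fall. In bulk RNA, fewer cells that make a transcript and less of it per cell cannot be told apart.

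A further contrast set *ΔWAPL/ΔSCC4* against *ΔSCC4*, separately derived lines that both lack SCC4 and differ in WAPL. The choice of *RELN* bears on it too, because the *ΔWAPL/ΔSCC4* line lacks WAPL and was made from clone 3.3, where *RELN* was already low. Its values are therefore also descriptions. *ΔWAPL/ΔSCC4* exceeded *ΔSCC4* by 0.30 on the log2 scale (standard error 0.58). Its 3 libraries held 35 reads together, and those of *ΔSCC4* held 22. The 3 libraries of each group overlapped, and at this depth the difference lay within its standard error. The estimate depended on single libraries. It was -0.12 without the *ΔSCC4* library that had 0 reads and 1.49 without the *ΔSCC4* library that had 16. It was -0.026 without replicate 2 of *ΔWAPL/ΔSCC4*, which also had 16 reads. Between *ΔWAPL/ΔSCC4* and clone 3.3 *RELN* was too low to pass the filter on counts.

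The partners sat at very different levels. Per kilobase of the canonical transcript, control A held 0.00388 CPM of *DAB1*, 2.26 of *RELN*, 2.78 of *VLDLR*, 6.12 of *LRP8*, 21.8 of *CRK* and 47.4 of *CRKL*. The ligand and both receptors were therefore the less abundant end of an expressed set, with CRKL, an adaptor phosphorylated by ABL1 kinases, at the top. *DAB1*, the adaptor that ties the receptors to the rest of the pathway, was the exception. It had 5 reads in all 18 libraries together, 1 in control A and 4 in *ΔSCC4*, and 14 libraries had none. Each library's limit for a count of 0 lay between 0.150 and 0.305 CPM, so no group could be compared and *DAB1* passed the filter in no comparison. *OMA1*, on the same strand, overlaps its gene body.

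Of the 4 partners that could be tested, *VLDLR* and *CRKL* were lower in *ΔWAPL* cells over both clones, and *LRP8* and *CRK* did not pass the test. Of all 12786 genes tested in that comparison, 17.7% passed, and 9.13% passed as lower, so 2 of 4 partners is read against those shares. *VLDLR*, which also takes up triglyceride-rich lipoproteins, held 21.0, 27.0 and 28.8 CPM in control A and 23.2, 23.1 and 19.0 CPM in clone 3.3. In set B it held 28.4, 30.1 and 29.6 CPM in control B and 17.7, 17.7 and 17.6 CPM in clone 1.14. The 2 groups overlapped in set A and stood apart in set B. Over both clones *VLDLR* fell by 0.48 on the log2 scale (standard error 0.11, adjusted p = 0.00572 by edgeR). For clone 1.14 alone it fell by 0.74 (standard error 0.07, adjusted p = 0.000306), and it was the only partner of 4 past the threshold there, against 20.1% of all genes tested and 11.4% as lower. For clone 3.3 alone the difference was -0.25 (standard error 0.16, adjusted p = 0.498).

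None of the 4 partners passed the edgeR test in clone 3.3, where 8.07% of all genes did. The count was 1 at an unadjusted p under 0.05 and 0 with DESeq2. The 2 clones were not shown to differ in *VLDLR*, for which the effect in clone 3.3 minus that in clone 1.14 was 0.50 (standard error 0.17, adjusted p = 0.223). No partner passed in that test of the difference, by edgeR or DESeq2, with 1 at an unadjusted p under 0.05, and 2.65% of all genes passed.

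*CRKL* held 270, 238 and 251 CPM in control A and 220, 202 and 187 CPM in clone 3.3, groups that did not overlap, as was so for 23.3% of genes. It held 250, 265 and 229 CPM in control B and 223, 234 and 233 CPM in clone 1.14, which overlapped. Over both clones it fell by 0.21 on the log2 scale (standard error 0.07, adjusted p = 0.0444). The call was a narrow one, past the threshold in 2 of 12 fits that each left out 1 library (replicate 1 of clone 3.3 or replicate 3 of control B), with a highest adjusted p of 0.0930 without replicate 2 of clone 3.3.

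*LRP8*, the receptor that in neurons links reelin to synaptic function, was at nearly the same level with and without WAPL. It held 40.8, 46.0 and 54.7 CPM in control A and 49.1, 46.8 and 46.4 CPM in clone 3.3. It held 56.4, 57.8 and 63.0 CPM in control B and 60.4, 57.2 and 61.1 CPM in clone 1.14. The groups overlapped in both sets, and the difference over both clones was 0.01 on the log2 scale (standard error 0.07, adjusted p = 0.954).

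*CRK* varied more between libraries of a group than between groups in set A. It ranged from 49.0 to 111 CPM in control A, from 57.2 to 134 CPM in clone 3.3, from 42.2 to 98.01 CPM in *ΔSCC4* and from 70.3 to 120 CPM in *ΔWAPL/ΔSCC4*. In set B the 3 libraries of control B lay between 116 and 126 CPM and those of clone 1.14 between 120 and 132 CPM. The difference over both clones was 0.06 on the log2 scale (standard error 0.20, adjusted p = 0.871).

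**Figure D2:**
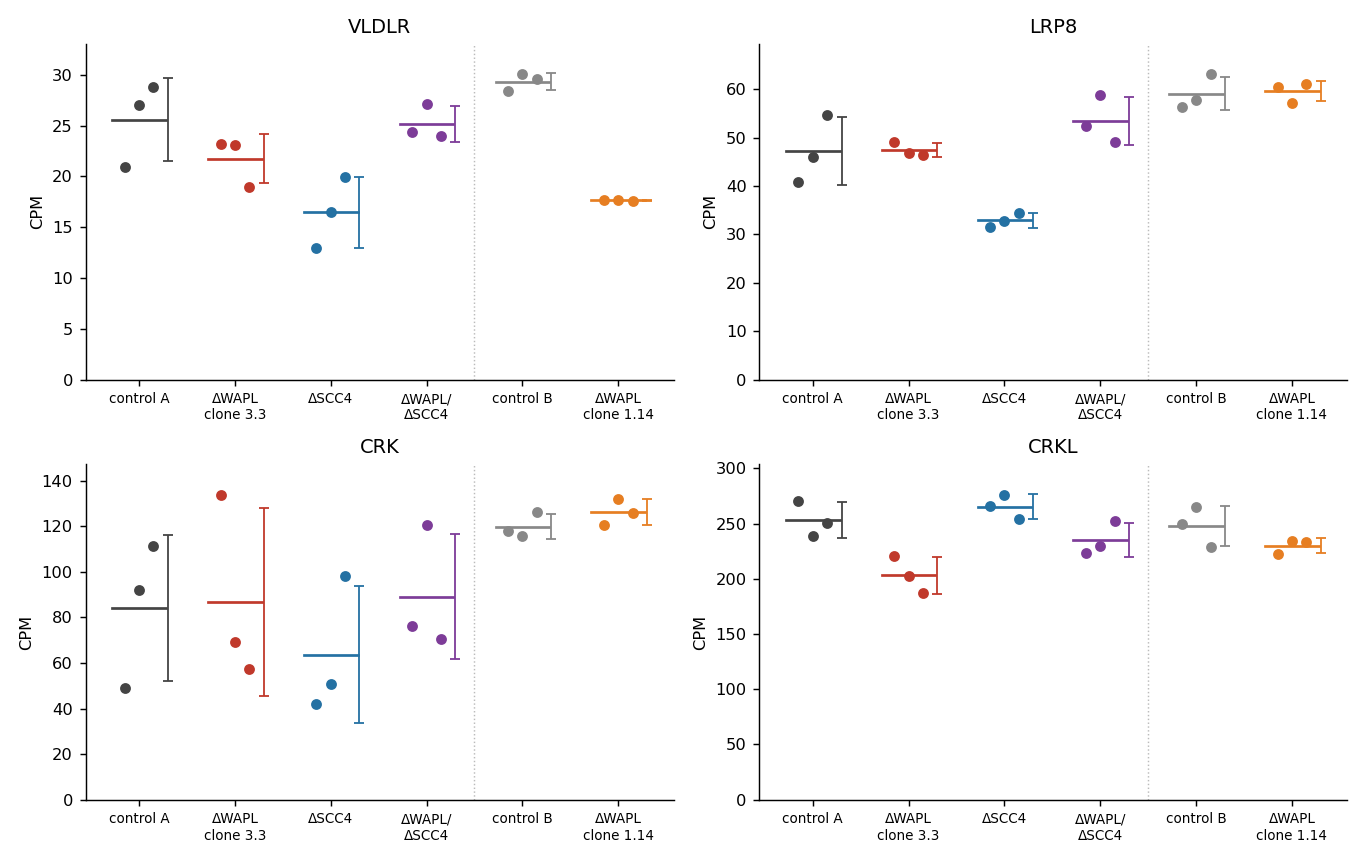
CPM of *VLDLR*, *LRP8*, *CRK* and *CRKL* in each library (points, axes from 0) by genotype, with the group mean (line) and 1 SD (bar, n = 3). *LRP8* sits between 31.5 and 34.5 CPM in *ΔSCC4*, below every other group, and *CRK* spreads widely in all 4 groups of set A.

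*LRP8* was lower in the *ΔSCC4* line than in control A, by a call that rested on single libraries, and both receptors were higher in the *ΔWAPL/ΔSCC4* line than in the *ΔSCC4* line. *LRP8* held 31.5, 32.8 and 34.5 CPM in *ΔSCC4* cells, all below the lowest library of control A. It fell by 0.53 on the log2 scale (standard error 0.15, adjusted p = 0.0467 by edgeR) and was the 1 of 4 partners past the threshold, where 9.49% of all genes passed, 4.03% as lower. *VLDLR* held 12.9, 16.5 and 19.98 CPM, again below every library of control A, at a difference of -0.65 (standard error 0.19, adjusted p = 0.0615). Groups that did not overlap were found for 26.7% of genes in that comparison. *CRK* differed by -0.41 (standard error 0.34, adjusted p = 0.513) and *CRKL*, at 266, 276 and 254 CPM, by 0.05 (standard error 0.12, adjusted p = 0.823).

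In both control A and *ΔSCC4*, replicate 1 was the lowest and replicate 3 the highest for *VLDLR*, *LRP8* and *CRK*, and equal numbers deviated together across genes. With the replicate number as a block, 3 of 4 partners passed, *LRP8* among them. *VLDLR* differed by -0.65 on the log2 scale (adjusted p = 0.000137 by edgeR) and *CRK* by -0.42 (adjusted p = 0.00976). That pairing was inferred from these same libraries, since the labels give only a number, so the values with the block add no support to the calls. The share of all genes that passed with the block is not given here. Without the block the call for *LRP8* was lost in 5 of 6 fits that left out 1 library, and stood only without replicate 1 of control A. Its highest adjusted p was 0.169, without replicate 3 of control A. No partner was past the threshold without replicate 2 or 3 of control A, or without replicate 1 or 2 of *ΔSCC4*. *VLDLR* passed without replicate 1 of control A and without replicate 3 of *ΔSCC4*, and *CRK* passed without the latter.

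*ΔWAPL/ΔSCC4* cells held 52.4, 58.8 and 49.1 CPM of *LRP8* and 24.4, 27.2 and 24.0 CPM of *VLDLR*. For both receptors each of these libraries lay above all 3 *ΔSCC4* libraries, as was so, in one direction or the other, for 41.3% of genes. *LRP8* rose by 0.70 on the log2 scale (standard error 0.13, adjusted p = 0.000717 by edgeR) and *VLDLR* by 0.61 (standard error 0.16, adjusted p = 0.00886), and 27.3% of all genes passed in this comparison, 13.7% as higher. The call for *VLDLR* was lost without replicate 2 of *ΔSCC4* (adjusted p = 0.0554). *CRK* differed by 0.48 (standard error 0.25, adjusted p = 0.160), and by 0.94 (adjusted p = 9.12e-09) without replicate 3 of *ΔSCC4*, the library with the most *CRK* in that group. *CRKL*, at 223, 230 and 252 CPM in *ΔWAPL/ΔSCC4*, differed by -0.18 (standard error 0.11, adjusted p = 0.259).

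Set against control A, *ΔWAPL/ΔSCC4* cells showed no partner past the threshold, while 7.95% of all genes passed. The count was also 0 at an unadjusted p under 0.05 and with DESeq2. *VLDLR* differed by -0.03 (standard error 0.14) and *LRP8* by 0.18 (standard error 0.14) on the log2 scale. Against clone 3.3 the counts were again 0 with edgeR, with DESeq2 and at an unadjusted p under 0.05, where 10.6% of all genes passed. There *VLDLR* differed by 0.21 (standard error 0.13) and *LRP8* by 0.17 (standard error 0.12). The comparisons of clone 3.3, *ΔSCC4* and *ΔWAPL/ΔSCC4* with control A share its 3 libraries, so their values are not independent.

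A test added after these values were seen asked whether the difference between lines without and with WAPL itself differed between lines without and with SCC4 in set A. The difference without SCC4 minus that with SCC4 was 0.87 on the log2 scale for *VLDLR* (standard error 0.23, adjusted p = 0.0222 by edgeR) and 0.71 for *LRP8* (standard error 0.17, adjusted p = 0.0126). These 2 of 4 partners passed where 11.3% of all genes did, 5.85% as higher. The values for *CRK* (0.46, standard error 0.52) and *CRKL* (0.17, standard error 0.14) did not pass. For *VLDLR* the call was lost in 5 of 12 fits that left out 1 library, with a highest adjusted p of 0.0612 without replicate 2 of control A. The other 4 omitted replicate 3 of clone 3.3, replicate 1 or 2 of *ΔSCC4*, or replicate 2 of *ΔWAPL/ΔSCC4*. For *LRP8* all 12 stayed past the threshold.

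**Figure D3:**
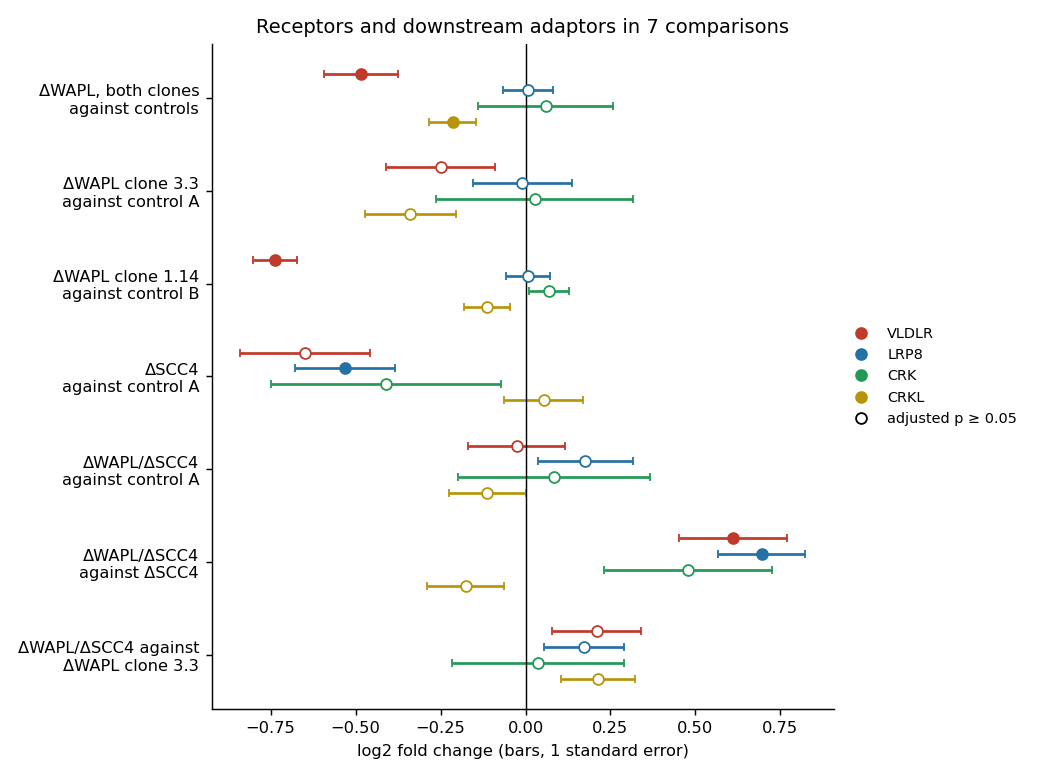
Log2 fold changes (points) with 1 standard error (bars) of *VLDLR*, *LRP8*, *CRK* and *CRKL* in 7 comparisons, from edgeR without a replicate block. Filled points have an adjusted p under 0.05. *VLDLR* lies at -0.74 in clone 1.14, and both receptors lie above 0 in *ΔWAPL/ΔSCC4* against *ΔSCC4*.

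Around these members lie the other genes of the pathway, described here as 7 lists of 73 genes in all. Over both *ΔWAPL* clones 67 of them were tested, of which 4 rose and 8 fell, a share of 17.9% against 17.7% of all genes. In *ΔSCC4* cells 5 rose and 4 fell of 65 tested (13.8% against 9.49%). In *ΔWAPL/ΔSCC4* against *ΔSCC4*, 9 rose and 14 fell of 67 (34.3% against 27.3%). The counts given below for each list are read against these shares of all genes, with 9.13% passing as lower over both clones.

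Among 12 other lipoprotein receptors and their relatives, 1 rose in *ΔWAPL* cells. This was *LRP2* (megalin, an endocytic receptor), which rose by 1.07 on the log2 scale from a low level (adjusted p = 0.0105 by edgeR). The median log2 difference of the 12 was -0.013, against 0.0048 for all genes. In *ΔSCC4* cells 1 of 11 tested rose, *LRP1B*, by 2.04 (adjusted p = 0.000508), from 2.38 ± 0.94 CPM in control A to 9.97 ± 1.495 CPM (SD, n = 3).

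Of the other ligands of these receptors and the proteins that handle them, 3 of 5 tested fell in *ΔWAPL* cells and none rose. Of all genes 9.13% passed as lower. The median log2 difference of the 5 was -0.51, against 0.0048 for all genes. With 5 genes from lists that together lay near the share of all genes, no direction is read from this count. *APOE*, the apolipoprotein that VLDLR and LRP8 also bind, held 2.58 ± 0.64 CPM in control A and 0.978 ± 0.235 in clone 3.3, and 2.29 ± 0.31 CPM in control B and 0.630 ± 0.145 in clone 1.14 (SD, n = 3). It fell by 1.59 on the log2 scale over both clones (adjusted p = 2.84e-05 by edgeR). *CLU*, the chaperone clusterin and another ligand of both receptors, fell by 0.51 (adjusted p = 0.00128). *MYLIP*, a ubiquitin ligase that marks these receptors for degradation, fell by the same amount (adjusted p = 0.00302). In clone 3.3 alone neither passed (*CLU* -0.37, adjusted p = 0.26, and *MYLIP* -0.37, adjusted p = 0.2645, both by edgeR). In *ΔSCC4* cells *CLU* rose by 0.81 (adjusted p = 0.00785 by edgeR) and *MYLIP* fell by 0.77 (adjusted p = 0.0129). *THBS1*, the ligand thrombospondin 1, had a log2 difference of -3.06 and held 3, 3 and 6 reads in *ΔSCC4*. It passed the filter on counts only through control A, so only a fall could be found and the value is a description. *MYLIP* lost that call without replicate 2 of control A or of *ΔSCC4*, and *CLU* without the former.

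Of 7 tested proteases that cut reelin or process such enzymes, 2 rose and 2 fell in *ΔWAPL* cells, where 17.7% of all genes passed. *TLL1*, a tolloid-like metalloprotease, rose by 4.34 on the log2 scale (adjusted p = 1.23e-10 by edgeR), from 0.518 ± 0.039 CPM in control A to 12.7 ± 2.4 in clone 3.3 and from 1.11 ± 0.22 CPM in control B to 20.2 ± 1.9 in clone 1.14 (SD, n = 3). In *ΔSCC4* cells it held 2.89 ± 0.33 CPM, a log2 difference of 2.45 from control A, which held 8, 9 and 8 reads. *TLL1* passed the filter on counts there only through the *ΔSCC4* libraries, so only a rise could be found and the value is a description. *ADAMTS3*, which cleaves reelin in the brain, rose by 0.40 over both clones (adjusted p = 0.00912), and *ADAMTS2*, which also cleaves it, fell by 0.41 (adjusted p = 0.00379). Neither passed in clone 3.3 alone (adjusted p = 0.458 for *ADAMTS3* and 0.1286 for *ADAMTS2* by edgeR).

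Among the surface proteins that assist reelin or DAB1, 1 of 6 fell in *ΔWAPL* cells, where 9.13% of all genes passed as lower. This was *EFNB2*, which fell by 0.29 (adjusted p = 0.0239 by edgeR). It passed in neither clone alone (adjusted p = 0.3476 in clone 3.3 and 0.0552 in clone 1.14). It lost the call in 4 of 12 fits that left out 1 library (replicate 2 of control A, replicate 1 of control B, and replicate 1 or 3 of clone 1.14). In *ΔSCC4* cells *EFNB1*, a related ephrin, fell by 0.92 (adjusted p = 0.00241), from 226 ± 33 to 121 ± 12 CPM (SD, n = 3). Of 12 kinases and partners of DAB1, with edgeR none passed over both clones, and with DESeq2 none, with 1 at an unadjusted p under 0.05. In *ΔSCC4* cells *LYN*, a Src family kinase, fell by 0.64 (adjusted p = 0.00982), a call lost without replicate 2 of control A or of *ΔSCC4*.

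Of 11 proteins that bind CRK or CRKL, or act next to them, 1 fell in *ΔWAPL* cells. *ABL1*, which phosphorylates both adaptors, held 16.3 ± 1.7 CPM in control A, 7.82 ± 0.31 in clone 3.3, 39.9 ± 2.9 in *ΔSCC4* and 16.7 ± 0.9 in *ΔWAPL/ΔSCC4* (SD, n = 3). In set B it held 11.9 ± 1.6 CPM in control B and 7.24 ± 0.70 in clone 1.14. It fell by 0.89 on the log2 scale over both clones (adjusted p = 1.77e-05 by edgeR) and rose by 1.27 in *ΔSCC4* cells (adjusted p = 0.000282). HAP1 cells carry a BCR-ABL1 fusion, whose reads over *ABL1* exons cannot be told apart from those of the intact gene in gene counts. Of 14 tested kinases and cytoskeletal substrates further downstream, 1 rose, *MAPT* (tau), by 0.52 over both clones (adjusted p = 0.00449). For clone 3.3 alone its difference was 0.29 (adjusted p = 0.4982 by edgeR). In *ΔSCC4* cells *MAPT* rose by 0.69 (adjusted p = 0.0319), a call lost without replicate 2 or 3 of control A and without replicate 1 or 2 of *ΔSCC4*.

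The neuronal and blood markers moved in both directions. *MAP2* rose by 0.63 over both *ΔWAPL* clones (adjusted p = 0.00875 by edgeR) and *TUBB3* fell by 0.74 (adjusted p = 0.0178). Neither passed in clone 3.3 alone (adjusted p = 0.5532 and 0.2117). *EBF2* held 0.13, 0.185 and 0.06 CPM in control A and 1.24, 1.83 and 2.14 CPM in *ΔSCC4*, a log2 difference of 3.70. It passed the filter on counts only through the *ΔSCC4* libraries, so only a rise could be found and the value is a description. *RUNX1* rose by 1.00 over both clones (adjusted p = 1.34e-05) and *ITGA2B* fell by 1.14 (adjusted p = 4.35e-05). The other 6 blood markers were too low to test.

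Of 24 other genes within 1 Mb of *RELN* on each side, 13 could be tested. Over both *ΔWAPL* clones 1 rose and 1 fell, where 17.7% of all genes passed, so the count says nothing particular about these neighbours. *LRRC17*, a secreted leucine-rich repeat protein gene at 102553447 to 102585558 on the plus strand, 526.3 kb from *RELN* towards lower coordinates, held 0.721 ± 0.099 CPM in control A, 2.58 ± 0.36 in clone 3.3, 2.78 ± 0.31 in *ΔSCC4* and 0.659 ± 0.067 in *ΔWAPL/ΔSCC4* (SD, n = 3). In set B it held 0.639 ± 0.228 CPM in control B and 2.47 ± 0.06 in clone 1.14. It rose by 1.86 on the log2 scale over both clones (adjusted p = 1.52e-06 by edgeR). In *ΔWAPL/ΔSCC4* cells it differed by -0.13 from control A (adjusted p = 0.902 by edgeR). *ΔSCC4* lay above control A by 1.93, and *ΔWAPL/ΔSCC4* lay below *ΔSCC4* by 2.08. In both comparisons with *ΔSCC4* the gene passed the filter on counts only with the *ΔSCC4* libraries. Only a higher level in *ΔSCC4* could be found there, so both values are descriptions. *LRRC17* was thus higher than in the controls in 3 of the 4 knockout lines, while *RELN* was low in all 4. *FBXL13*, which overlaps it on the other strand, held 1 to 15 reads in every library.

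*RASA4*, 854.6 kb away, had a log2 difference of -0.94 over both clones, from under 1 CPM. It passed the filter on counts only through the control libraries, so only a fall could be found and the value is a description. It overlaps 2 other genes on the same strand and has close copies nearby, so its counts are uncertain. Counted above as passing by edgeR, it did not pass with DESeq2 or in 5 of 12 fits that left out 1 library (replicate 2 of control A, replicate 1 of clone 3.3, replicate 2 of control B, and replicate 2 or 3 of clone 1.14). In *ΔWAPL/ΔSCC4* against control A none of the 13 passed with edgeR, with DESeq2, or at an unadjusted p under 0.05, where 7.95% of all genes passed with edgeR. In *ΔWAPL/ΔSCC4* against *ΔSCC4* 3 of the 13 passed, where 27.3% of all genes did. Beside *LRRC17* these were *FAM185A*, higher by 0.76 on the log2 scale (adjusted p = 0.0148 by edgeR), and *ARMC10*, higher by 0.56 (adjusted p = 0.00962). In clone 1.14 3 passed with edgeR, where 20.1% of all genes did, and 1 passed with DESeq2. The 3 were *LRRC17*, *RASA4* and *PMPCB*, the last with a log2 difference of -0.20 (adjusted p = 0.0368 by edgeR). *LRRC17* passed the filter on counts there only with the libraries of clone 1.14, and *RASA4* only through those of control B. The direction of each was therefore fixed. *FAM185A*, *ARMC10* and *PMPCB* were named after their values were seen.

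**Figure D4:**
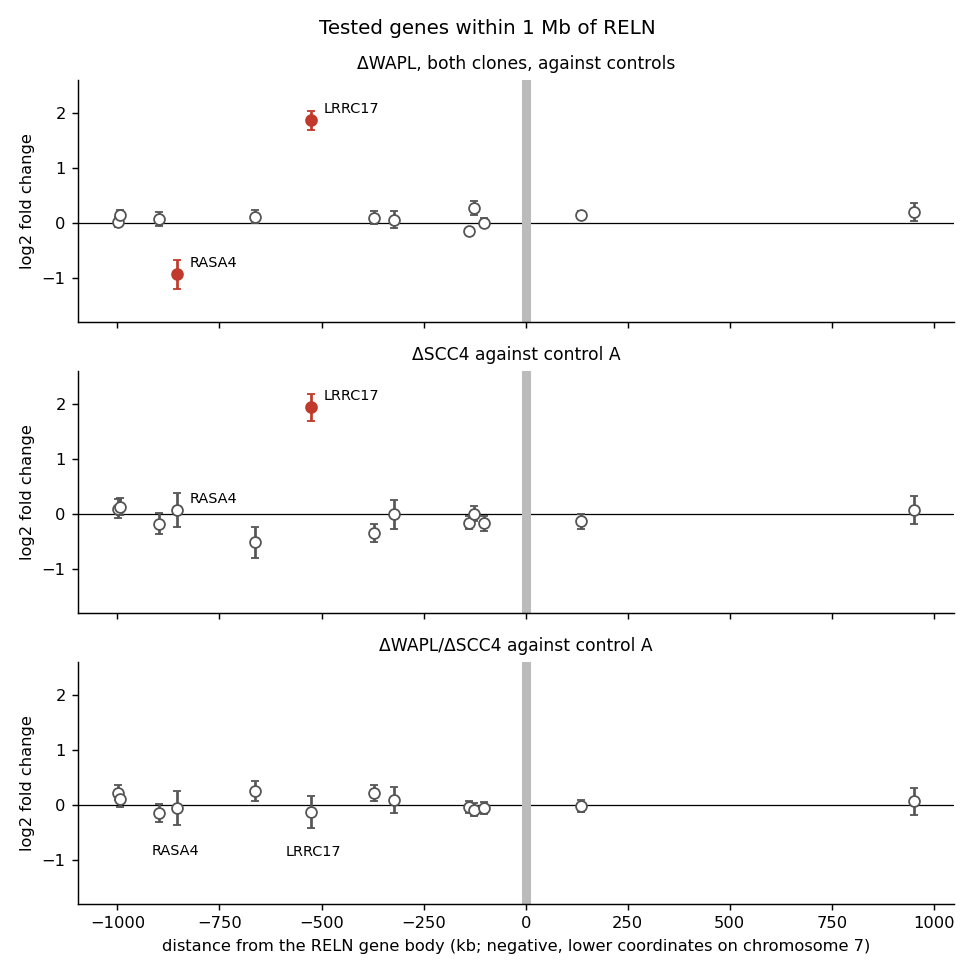
Log2 fold change (points, bars 1 standard error) of the 13 tested genes within 1 Mb of *RELN* against their distance in kb from its gene body (grey bar), for 3 comparisons. Filled red points have an adjusted p under 0.05. *LRRC17* lies at 1.86 in *ΔWAPL*, at 1.93 in *ΔSCC4* and at -0.13 in *ΔWAPL/ΔSCC4*. The filter on counts fixed the direction of *LRRC17* in *ΔSCC4* and of *RASA4* in *ΔWAPL*.

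The genes with the profile nearest to that of *RELN* were found by the root mean square difference of the 6 group means of log2 CPM, each centred on its own mean. This is a description over 6 groups of 18 libraries, with no test. *MFAP2*, a microfibril protein gene, was nearest (0.72 log2 units), followed by *TCEAL9* (0.98), *ARHGAP4* (1.27), *OLIG1* (1.34) and *MYO5C* (1.39). *MFAP2* held 6.86 ± 1.03 CPM in control A and 5.25 ± 0.18 in control B, 0.219 ± 0.179 in clone 3.3 and 0.078 ± 0.093 in clone 1.14. It had 0 reads in the 3 *ΔSCC4* libraries together and 3 reads in those of *ΔWAPL/ΔSCC4*. *MYO5C*, an unconventional myosin gene, departed from *RELN* in clone 1.14, where it held 17.3 ± 0.7 CPM against 15.8 ± 1.8 in control B, though it held 0.593 ± 0.259 CPM in clone 3.3. *TCEAL9* kept 4.39 ± 0.23 CPM in clone 1.14 against 11.04 ± 2.24 in control B.

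The profiles nearest to the mirror image of that of *RELN* were those of *HBB* (0.84 log2 units), *NLGN4X* (1.02) and *JAKMIP3* (1.04). *HBB*, the beta-globin gene, had 0 reads in all 6 control libraries and mean levels of 1.60 CPM in clone 3.3, 7.49 in *ΔSCC4*, 5.95 in *ΔWAPL/ΔSCC4* and 3.59 in clone 1.14. *NLGN4X*, a neuronal adhesion gene, held 0.0820 CPM in control A and 4.02, 7.69 and 10.9 CPM in clone 3.3, *ΔSCC4* and *ΔWAPL/ΔSCC4*.

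**Figure D5:**
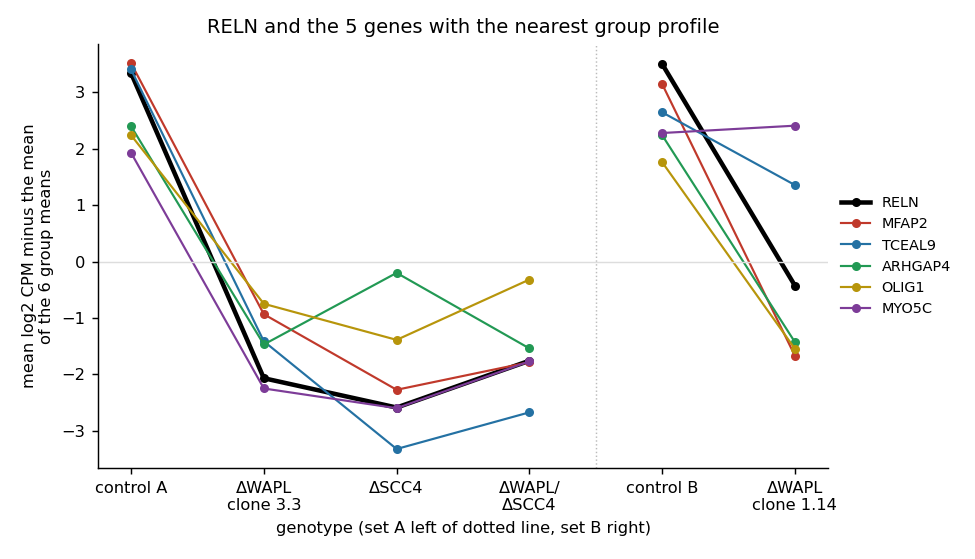
Mean log2 CPM per genotype, centred on the mean of the 6 group means, for *RELN* (thick black line) and the 5 genes with the nearest profile (thin lines), with set A left of the dotted line and set B right. *MYO5C* and *TCEAL9* stay above 0 in clone 1.14, unlike *RELN*.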

How the data were processed

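Polyadenylated RNA of HAP1 cells was read from stranded libraries. The authors deposited raw counts per gene for each library, made with TopHat2 and HTSeq on hg19 (the submitters' notes give TopHat2 2.0.9, and the study's methods give another version). The annotation release and the strand setting of the counting are not given in the sources used here. Reads not on a gene, 20.34% to 22.62% of a library, were left out.

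Counts were tested with edgeR 4.0.16 in R 4.3.3 (TMM, filterByExpr, quasi-likelihood test, Benjamini-Hochberg adjustment over all genes tested, threshold 0.05). In the comparison over both clones the set was a covariate. A gene near 0 in 1 group could pass the filter through the other group alone, which fixes the direction of its difference. CPM values are TMM-normalised over all 18 libraries, and log2 CPM adds a prior count of 2. Standard errors are the log2 fold change over the root of F. DESeq2 1.42.0, other size factors and filters, 1 fit of all libraries, a replicate block and the omission of single libraries were the alternatives. The fitting was checked on simulated counts. A count of 0 is given with a limit of 3 counts. Limits cover counting error only.

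Results for 1 gene of the lists are not reported here. Gene names matched for 96.6% of identifiers. Coordinates are from GENCODE v44 mapped to GRCh37. Upstream sequences are from RefSeq. Members, lists and the rules for naming genes were chosen with earlier results of these data known. From each list at most the 3 genes with the smallest adjusted p over both clones and, in *ΔSCC4*, the 2 smallest were named. Other rules took the 5 nearest profiles (average log2 CPM of at least 1), the 3 nearest mirrored profiles, and neighbours within 1 Mb of *RELN* that passed over both clones. Replicate pairs differed by more than sampling noise (chi-square per degree of freedom 1.61 to 51.99). Replicate numbers, from the labels, were taken to pair *ΔSCC4* with control A, where deviations of equal numbers correlated at 0.675, 0.115 and 0.615. The labels do not state this pairing, which was inferred from the same data.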

Additional observations from a re-analysis of the deposited data

Results flagged for a closer look

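The difference between lines without and with WAPL was not the same in lines without SCC4 as in lines with it (edgeR interaction term over the 12 libraries of set A, chosen after the values were seen) for several genes named above. The log2 value without SCC4 minus that with SCC4 was 0.87 for *VLDLR* and 0.71 for *LRP8*. It was -3.87 for *LRRC17* (adjusted p = 8.02e-07), the gene 526.3 kb from *RELN*. Among the list genes it was 2.55 for *APOE*, 0.93 for *MYLIP*, 3.20 for *THBS1*, 0.65 for *LYN* and 1.37 for *ITGA2B*. It was -5.80 for *TLL1*, -0.96 for *MAPT* and -2.99 for *MAP2*. Of all genes tested, 11.3% passed in that test.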

How the results depend on the processing

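The number of partners past the threshold over both clones, 2, was 1 without a filter and 1 with the replicate block, and 1 to 2 when single libraries were left out. In clone 3.3 it was 1 rather than 0 in 1 fit of all 18 libraries, where *CRKL* passed. In clone 1.14 it ranged from 1 to 2 without single libraries (2 without replicate 3 of control B). In *ΔSCC4* against control A it was 2 with DESeq2, 2 without a filter, 2 in 1 fit of all libraries, 0 with at least 10 counts in every sample, 3 with the replicate block, and 0 to 2 without single libraries. In *ΔWAPL/ΔSCC4* against *ΔSCC4* it was 1 to 3 without single libraries, and for the difference between the WAPL comparisons without and with SCC4 1 to 2. The cause was not tested. The *RELN* difference between *ΔWAPL/ΔSCC4* and *ΔSCC4* ranged from -0.125 to 1.49 without single libraries. *RELN* stayed below its controls in every alternative.

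Differences near 0 changed sign. *LRP8* over both clones was -0.001 with at least 10 counts in every sample and -0.042 to 0.062 without single libraries. In clone 3.3 it was 0.008 with DESeq2 and with its size factors, 0.007 in 1 fit of all libraries and -0.097 to 0.11 without single libraries. In clone 1.14 that range was -0.015 to 0.052. For the difference between clones *LRP8* was 0.004 with the replicate block and -0.108 to 0.116 without single libraries. *CRK* was -0.014 with the replicate block in clone 3.3. Without single libraries it ranged from -0.139 to 0.172 over both clones, -0.41 to 0.281 in clone 3.3, -0.489 to 0.227 for the difference between clones, -0.203 to 0.339 in *ΔWAPL/ΔSCC4* against control A and -0.227 to 0.497 against clone 3.3. *VLDLR* in *ΔWAPL/ΔSCC4* against control A ranged from -0.132 to 0.066.

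In the other comparisons the correlations of equal replicate numbers ranged from -0.545 to 0.362. In clone 1.14 against control B all 3 were positive (0.049, 0.319 and 0.196), while every other one of these comparisons held a negative value. The labels give only a number, so no pairing was taken outside the *ΔSCC4* comparison with control A. With the block, *CRKL* (adjusted p = 0.113 by edgeR), *EFNB2*, *TUBB3* and *RASA4* no longer passed over both clones. Outside *ΔSCC4* against control A, the block changed no other call of a partner. *RELN* held 0 to 35 reads in a knockout library and *DAB1* 0 to 2 reads in any library, so differences among such values are imprecise.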
